A study of Mus musculus with 6 samples.

Results

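The core circadian clock of the liver was followed through 10 genes of its transcriptional loop, namely Arntl, Clock, Npas2, Per1, Per2, Per3, Cry1, Cry2, Nr1d1 and Nr1d2. They were taken by gene name from the 41388 gene identifiers of the count table, all 10 were present, and 9 of the 10 were among the 12988 genes with enough counts for a test. The tenth, Npas2, had at most 11 reads in each WT library and was left out by that filter.

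Liver RNA was sequenced from 3 Atp7b-/- libraries and 3 wild type (WT) libraries. Atp7b-/- mice lack the copper-transporting ATPase whose human counterpart is mutated in Wilson disease. Both groups were 6 weeks old, had the mixed background C57BL x 129S6/SvEv, ate the same chow with 16 ppm copper and were kept under alternating light and dark. Atp7b-/- replicates 1 and 2 (labelled male) and WT replicates 2 and 3 (labelled female) were read single-end, while Atp7b-/- replicate 3 (labelled female) and WT replicate 1 (labelled male) were read paired-end, all with reads of 54 bases. How the Atp7b allele was made, the part of the gene it removes and the time of day at which each liver was taken are not stated in any source used here. A difference between genotypes and a difference in collection time therefore cannot be told apart.

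The clock is a delayed negative feedback loop that runs in nearly every cell. The proteins of Arntl (also called BMAL1) and of Clock or its relative Npas2 pair up and switch on the Per, Cry and Nr1d genes. PER and CRY proteins then return to block that pair, and the nuclear receptors NR1D1 and NR1D2 (REV-ERB alpha and beta) repress Arntl, Npas2 and Nfil3 in competition with the activating ROR receptors. In mouse liver Arntl and Npas2 mRNA is thereby high at the time of day when Nr1d1, Per3 and Dbp mRNA is low, while Cry1 mRNA peaks later than that of the other repressor genes. In liver the loop times the synthesis of bile acids, cholesterol, glucose and haem.

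The short DNA elements through which these arms act on each other were looked for in RefSeq promoter windows of build GRCm38.p6, which run from 250 bases before to 50 bases after a gene's start. Windows were given for 9 of the 10 genes, and there was none for Per2. The E-box CACGTG, read by the pair of ARNTL with CLOCK or NPAS2, stood in a window of Per1 and of Cry1. That was 2 of the 9 genes, against 8.09% of all 27025 genes with a window and 7.15% of all 32851 windows. The D-box TTATGTAA or TTACGTAA, read by DBP, TEF, HLF and NFIL3, stood in the window of Per3 alone among the 9 genes. It stood in 1.23% of all genes with a window and 1.06% of all windows. The element TAGGTCA or TGGGTCA, read by ROR and REV-ERB receptors, stood in a window of Arntl, against 7.35% of all genes with a window and 6.45% of all windows. Both strands were searched and no match overlapped another. Sequences of 5 genes follow, each from 5′ to 3′ on the gene's strand with the matches in capitals. They are those of the clock genes that held a match, together with Nfil3, which carries the same element as Arntl. Of the other linked genes searched, Tef and Ciart held E-boxes, while Dbp and Hlf held no match.

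Arntl: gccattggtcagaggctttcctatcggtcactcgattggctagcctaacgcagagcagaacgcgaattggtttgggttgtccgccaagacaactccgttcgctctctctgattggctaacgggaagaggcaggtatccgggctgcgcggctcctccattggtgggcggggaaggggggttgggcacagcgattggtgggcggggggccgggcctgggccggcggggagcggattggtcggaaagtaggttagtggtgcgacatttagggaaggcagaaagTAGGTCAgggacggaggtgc
Per1: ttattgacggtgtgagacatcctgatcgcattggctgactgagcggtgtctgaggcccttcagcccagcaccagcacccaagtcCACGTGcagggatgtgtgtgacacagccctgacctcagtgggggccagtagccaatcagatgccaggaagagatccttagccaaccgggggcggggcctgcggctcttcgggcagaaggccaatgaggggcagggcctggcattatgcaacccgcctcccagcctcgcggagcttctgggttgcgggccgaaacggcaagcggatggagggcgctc
Cry1: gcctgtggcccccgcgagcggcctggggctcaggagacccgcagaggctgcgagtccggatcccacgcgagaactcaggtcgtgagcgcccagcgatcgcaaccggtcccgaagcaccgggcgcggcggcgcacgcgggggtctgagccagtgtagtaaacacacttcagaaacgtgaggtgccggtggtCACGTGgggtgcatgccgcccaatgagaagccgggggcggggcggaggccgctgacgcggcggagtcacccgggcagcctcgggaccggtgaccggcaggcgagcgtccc
Per3: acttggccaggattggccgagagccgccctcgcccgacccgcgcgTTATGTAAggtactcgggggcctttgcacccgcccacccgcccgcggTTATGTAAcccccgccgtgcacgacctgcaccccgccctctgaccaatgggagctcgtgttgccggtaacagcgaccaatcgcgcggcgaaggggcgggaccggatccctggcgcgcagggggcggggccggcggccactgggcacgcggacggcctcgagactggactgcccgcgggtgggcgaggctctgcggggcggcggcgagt
Nfil3: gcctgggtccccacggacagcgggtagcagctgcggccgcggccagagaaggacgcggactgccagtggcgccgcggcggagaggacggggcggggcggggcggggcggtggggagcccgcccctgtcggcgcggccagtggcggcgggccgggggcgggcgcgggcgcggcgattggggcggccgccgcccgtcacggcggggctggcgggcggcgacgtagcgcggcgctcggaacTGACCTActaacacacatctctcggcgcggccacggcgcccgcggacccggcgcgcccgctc

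With the start of the gene as position 0, an Arntl window (chr7:113207261-113207560, plus strand) held TAGGTCA at position 30. A Per1 window (chr11:69098699-69098998, plus strand) held an E-box at position -166, and the Cry1 window (chr10:85185005-85185304, minus strand) held its E-box at position -60. Arntl and Per1 each had a further window, which held no match. The Per3 window (chr4:151044616-151044915, minus strand) held TTATGTAA at positions -205 and -158. In the Nfil3 window (chr13:52980990-52981289, minus strand) the same element as in Arntl lay on the other strand, as TGACCTA at position -12. A match describes the letters and is no measure of binding, and a window without a match says only that these letters are not in it.

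Levels are given as CPM, in which TMM factors bring the counts of each library to a common total, and gene positions are those of GENCODE on build GRCm38. Total counts per library were 5919389 to 25973968, and the mitochondrial share of counts was 8.14% and 4.09% to 4.15% in paired-end and single-end Atp7b-/- libraries, against 7.74% and 2.501% to 2.57% in paired-end and single-end WT libraries. Atp7b itself was 19.2, 13.7 and 13.3 CPM in Atp7b-/- replicates 1 to 3, against 25.3, 85.2 and 59.7 CPM in WT replicates 1 to 3, with the genotypes apart (log2 fold change -1.73, SE 0.30, adjusted p = 0.02). Sex-linked transcripts did not match the labelled sex in 2 libraries. Atp7b-/- replicate 3, labelled female, had 126 CPM of the Y-linked Ddx3y and 0.482 CPM of Xist. WT replicate 3, labelled female, had a mixed signal, with both 28.0 CPM of Ddx3y and 17.4 CPM of Xist. Hepatocyte markers were abundant in all libraries, with a summed level of 52155 to 67334 CPM in Atp7b-/- livers against 81369.7 to 104181 CPM in WT livers, and 7 of the 8 had a negative log2 fold change, with none called. Endothelial markers summed to 178 to 443 CPM in Atp7b-/- livers against 200 to 629 CPM in WT livers, with 8 of 8 negative and none called. Other markers were mixed in sign, with none called. Kupffer cell markers had 3 positive and 5 negative log2 fold changes, stellate cell markers 4 and 3, and cholangiocyte markers 3 and 2. Over all 12988 tested genes 6607 were negative and 2.49% were called. The part of these lists in the clock values was not tested. In whole liver, fewer cells of a type and less RNA per cell cannot be told apart.

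No core clock gene passed the test between genotypes. In edgeR's quasi-likelihood test with layout as a term and Benjamini-Hochberg adjustment over all genes, 0 of the 9 tested genes reached an adjusted p under 0.05, against 2.49% of all 12988 genes, and DESeq2 also called 0 of the 9, against 5.93%. Before adjustment edgeR's p was under 0.05 for 1 of the 9, Arntl, and for 1889 of all genes. Log2 fold changes were positive for 2 and negative for 7 of the 9, with a median of -0.76, against -0.01 over all genes. Atp7b-/- and WT values stood fully apart in CPM for 0 of the 10 genes, against 8.51% of all tested genes. The Atp7b-/- libraries differed widely among themselves in these genes.

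Arntl (ENSMUSG00000055116, chr7:113207465-113314126, plus strand), the partner that every activating pair needs, was 10.8, 0.281 and 43.2 CPM in Atp7b-/- replicates 1 to 3, against 3.24, 0.935 and 0.371 CPM in WT replicates 1 to 3. Atp7b-/- replicates 3 and 1 were above every WT library, and Atp7b-/- replicate 2 was below all of them, so that the groups overlapped. The counts behind the low values were 2 reads in Atp7b-/- replicate 2 and 11 and 2 reads in WT replicates 2 and 3. The exact 95% Poisson intervals were 0.0340 to 1.01 CPM in Atp7b-/- replicate 2 and 0.0449 to 1.34 CPM in WT replicate 3, so their order was not detectable at this depth. Arntl averaged 18.1 ± 22.3 CPM in Atp7b-/- livers and 1.52 ± 1.52 CPM in WT livers (SD, n = 3 each). Its log2 fold change was 3.38 (SE 1.16, adjusted p = 0.302), the largest of the 9 in size. The difference in log2 CPM was 3.68 between the paired-end libraries and 1.54 between the means of the single-end ones. Without Atp7b-/- replicate 2, the library that made the groups overlap, the log2 fold change was 3.81 and passed the test (adjusted p = 0.00193). Removing that library ends the overlap by itself, so this call gives no support to a difference. Leaving out any other single library gave 2.36 to 3.78, and Arntl did not pass (adjusted p = 0.452 to 0.817).

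Npas2 (ENSMUSG00000026077, chr1:39193731-39363236, plus strand), which can take the place of Clock in the activating pair, showed a similar order of libraries at a lower level. It was 3.03, 0.421 and 8.61 CPM in Atp7b-/- replicates 1 to 3, from 52, 3 and 250 reads, against 0.503, 0.170 and 0.185 CPM in WT replicates 1 to 3, from 11, 2 and 1 reads. Again replicates 3 and 1 of the Atp7b-/- livers were the highest, and Atp7b-/- replicate 2 lay within the WT range. Under a filter that used the design matrix and kept 13751 genes, chosen after seeing the data, its log2 fold change was 3.795 (adjusted p = 0.0301), and Npas2 was the 1 core clock gene called there, against 2.41% of those genes. It passed that filter only through Atp7b-/- replicates 1 and 3, where it was high, so this call gives no support to a difference. With no filter on low counts the value was 3.82 (adjusted p = 5.06e-08), and Npas2 and Per2 were the 2 core clock genes called, against 4.44% of 25130 genes. This value for Npas2 rested on the same few WT reads, with Atp7b-/- replicate 2 inside the WT range. Arntl, with a similar order of libraries, was not called in that fit (log2 fold change 3.40, adjusted p = 0.6). In the leave-outs where Npas2 passed the filter by genotype, it missed the threshold without WT replicate 1, 2 or 3 (adjusted p = 0.251, 0.0544 and 0.0943) and passed it without Atp7b-/- replicate 2 (adjusted p = 0.0055), where its place in the fit again rested on Atp7b-/- replicates 1 and 3.

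Clock (ENSMUSG00000029238, chr5:76209868-76304792, minus strand) was 45.4, 20.1 and 106 CPM in Atp7b-/- replicates 1 to 3, against 81.2, 21.2 and 32.3 CPM in WT replicates 1 to 3. The paired-end library was the highest in each genotype and the groups overlapped over nearly their whole range. Its log2 fold change between genotypes was 0.34 (SE 0.31, adjusted p = 0.682). Between paired-end and single-end libraries it was 1.65 (adjusted p = 0.0028).

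**Figure D1:**
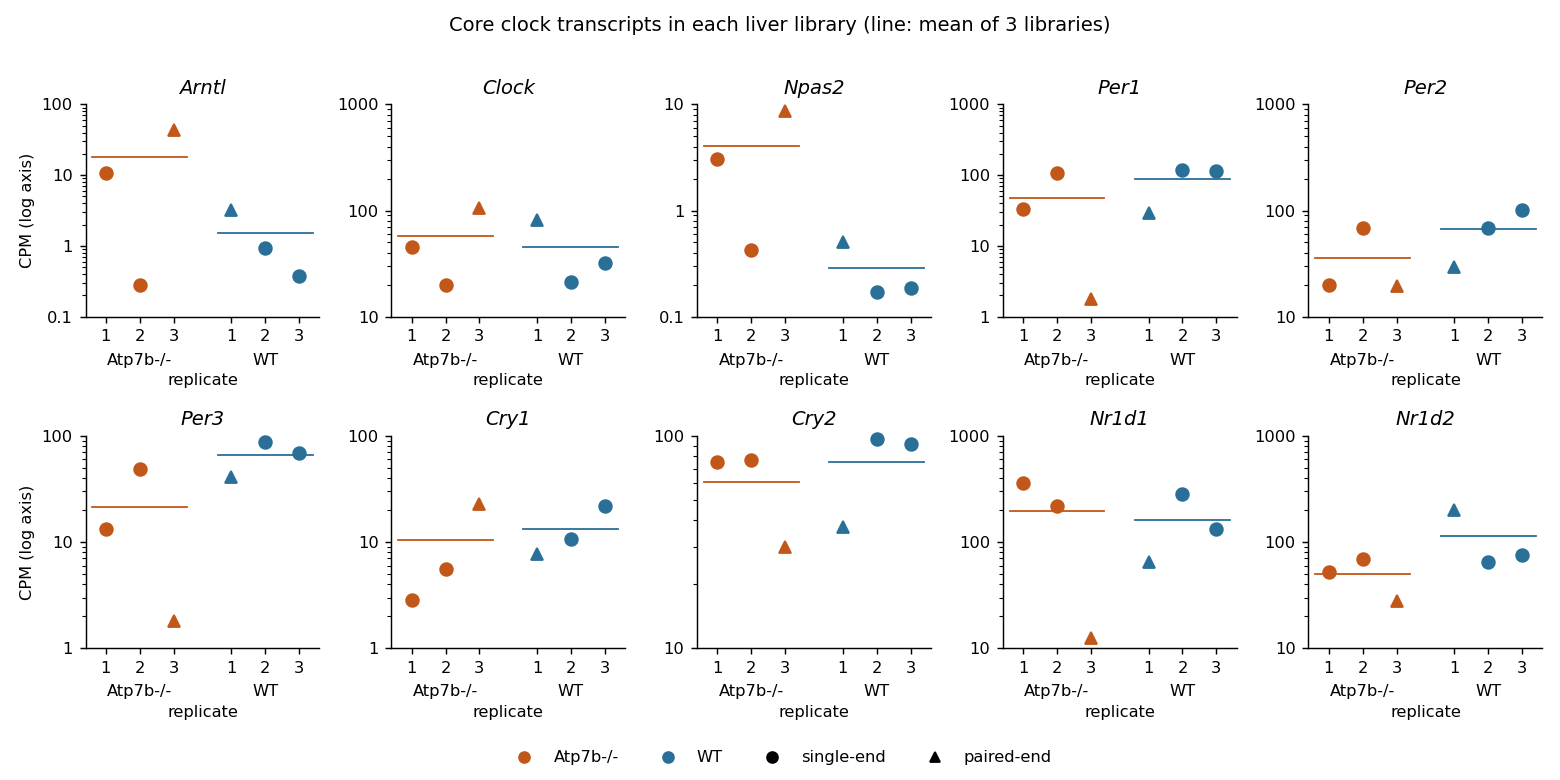
CPM on a log axis of the 10 core clock genes in each library, with Atp7b-/- libraries to the left of WT libraries, circles for single-end and triangles for paired-end libraries, and a line at the mean of 3 libraries. Atp7b-/- replicate 3 is highest for Arntl (43.2 CPM), Clock, Npas2 and Cry1 and lowest for the other 6 genes, among them Per1 (1.76 CPM) and Nr1d1 (12.3 CPM).

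The 3 Per genes, which encode the PERIOD repressors, ran opposite to Arntl. Per1 (ENSMUSG00000020893, chr11:69095217-69109960, plus strand) was 32.9, 107 and 1.76 CPM in Atp7b-/- replicates 1 to 3, against 28.8, 118 and 114 CPM in WT replicates 1 to 3. Per3 (ENSMUSG00000028957, chr4:151003652-151044665, minus strand) was 13.2, 48.8 and 1.79 CPM in Atp7b-/- replicates 1 to 3, against 41.1, 88.1 and 69.5 CPM in WT replicates 1 to 3. Both were lowest by far in Atp7b-/- replicate 3, which was read more deeply than any other library and gave 51 reads for Per1 and 52 for Per3. For Per3 the genotypes overlapped through Atp7b-/- replicate 2, which lay between WT replicates 1 and 3. Per2 (ENSMUSG00000055866, chr1:91415982-91459324, minus strand) was 19.9, 67.9 and 19.4 CPM in Atp7b-/- replicates 1 to 3, against 29.5, 68.7 and 101 CPM in WT replicates 1 to 3. It was low in Atp7b-/- replicates 1 and 3 alike, and Atp7b-/- replicate 2 was close to WT replicate 2.

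Log2 fold changes were -1.68 for Per1 (SE 0.94, adjusted p = 0.518), -0.84 for Per2 (SE 0.44, adjusted p = 0.461) and -2.28 for Per3 (SE 0.95, adjusted p = 0.396). All 3 were negative within each layout. For Per1 the difference in log2 CPM was -3.94 between the paired-end and -0.97 between the single-end libraries, and for Per3 it was -4.42 and -1.62. Without Atp7b-/- replicate 2 Per3 passed the test (log2 fold change -3.31, adjusted p = 0.0233), and with Arntl, and with Npas2 under the limit given for it, the core clock genes called were 3, against 2.08% of 13835 genes. That library was the one that made Arntl and Per3 overlap between genotypes. Calls made by removing it therefore give no support to a difference. Without Atp7b-/- replicate 3 the log2 fold change was -0.72 for Per1 (adjusted p = 0.594) and -1.35 for Per3 (adjusted p = 0.406), and without WT replicate 1 it was -0.74 for Per1 and -1.36 for Per3. For Per2 it was -0.43 without Atp7b-/- replicate 1 and -1.42 without Atp7b-/- replicate 2.

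The Cry genes encode the cryptochromes, the other repressors of the activating pair, and did not move together. Cry1 (ENSMUSG00000020038, chr10:85131700-85185064, minus strand) was 2.86, 5.61 and 22.8 CPM in Atp7b-/- replicates 1 to 3, against 7.68, 10.8 and 21.7 CPM in WT replicates 1 to 3. Atp7b-/- replicates 1 and 2 were below every WT library and Atp7b-/- replicate 3 was above them all. Its log2 fold change was -0.76 (SE 0.95, adjusted p = 0.79), with 1.56 between the paired-end and -1.90 between the single-end libraries. Cry2 (ENSMUSG00000068742, chr2:92403646-92434043, minus strand) was 75.5, 77.0 and 30.0 CPM in Atp7b-/- replicates 1 to 3, against 37.1, 96.9 and 91.9 CPM in WT replicates 1 to 3. It had the smallest spread of the 10 genes, and the paired-end library was the lowest in each genotype. The log2 fold change of Cry2 was -0.31 between genotypes (SE 0.17, adjusted p = 0.463) and -1.35 between paired-end and single-end libraries (adjusted p = 0.000583).

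Nr1d1 (ENSMUSG00000020889, chr11:98767932-98775333, minus strand), the receptor that represses Arntl, was 361, 218 and 12.3 CPM in Atp7b-/- replicates 1 to 3, against 64.7, 285 and 132 CPM in WT replicates 1 to 3. Atp7b-/- livers held both the highest value, in replicate 1, and the lowest, in replicate 3. Its log2 fold change was -0.40 (SE 0.77, adjusted p = 0.869), a direction that turned with the libraries used: it was 0.48 without Atp7b-/- replicate 3, 0.48 without WT replicate 1 and 0.03 without replicate 3 of both genotypes. Nr1d2 (ENSMUSG00000021775, chr14:18204054-18239127, minus strand), its close relative, was 52.1, 68.7 and 27.6 CPM in Atp7b-/- replicates 1 to 3, against 200.1, 64.8 and 75.3 CPM in WT replicates 1 to 3. WT replicate 1 stood above the other 5 libraries and Atp7b-/- replicate 3 below them, both of them paired-end. The log2 fold change of Nr1d2 was -1.05 (SE 0.60, adjusted p = 0.504). It was -0.20 without Atp7b-/- replicate 3, -0.21 without WT replicate 1 and -0.10 without replicate 3 of both genotypes.

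Reads of overlapping genes limit some of these values, since the strand setting of the counting is not given. The exons of Nr1d1 share 263 bases, 8.55% of their length, with Thra on the other strand, a thyroid hormone receptor gene with a log2 fold change of 0.19 (adjusted p = 0.767). Cry2 shares 295 bases (4.67%) with the noncoding D930015M05Rik, and Arntl 33 bases (0.439%) with the antisense transcript Gm45355.

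Between layouts 3 of the 9 tested genes differed (Clock, Cry2 and Nr1d1), against 52.8% of all genes. For Nr1d1 the log2 fold change of paired-end over single-end was -2.87 (adjusted p = 0.0488). Whether the genotype difference itself differed between layouts was tested as an interaction, and edgeR called 0 of the 9 genes, against 0.0154% of all genes. Before adjustment, edgeR's p was under 0.05 for 5 of the 9 genes and for 594 of the 12988. These 5 were Nr1d2 (adjusted p = 0.273), Cry1 (adjusted p = 0.507), Nr1d1 (adjusted p = 0.741), Per1 (adjusted p = 0.945) and Per3 (adjusted p = 0.987). DESeq2 called 4 of them, against 0.539% of all genes: Nr1d2 (adjusted p = 0.000997), Cry1 (adjusted p = 0.0132), Nr1d1 (adjusted p = 0.0133) and Per1 (adjusted p = 0.0189). In this fit the paired-end libraries, 1 per genotype, are fitted exactly, so the p-values rest on the single-end spread alone. Since labelled sex runs opposite to genotype in the 2 layouts, a layout effect on the genotype difference and an effect of labelled sex cannot be told apart. Those labels are themselves uncertain, as sex-linked transcripts did not match them in 2 libraries.

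**Figure D2:**
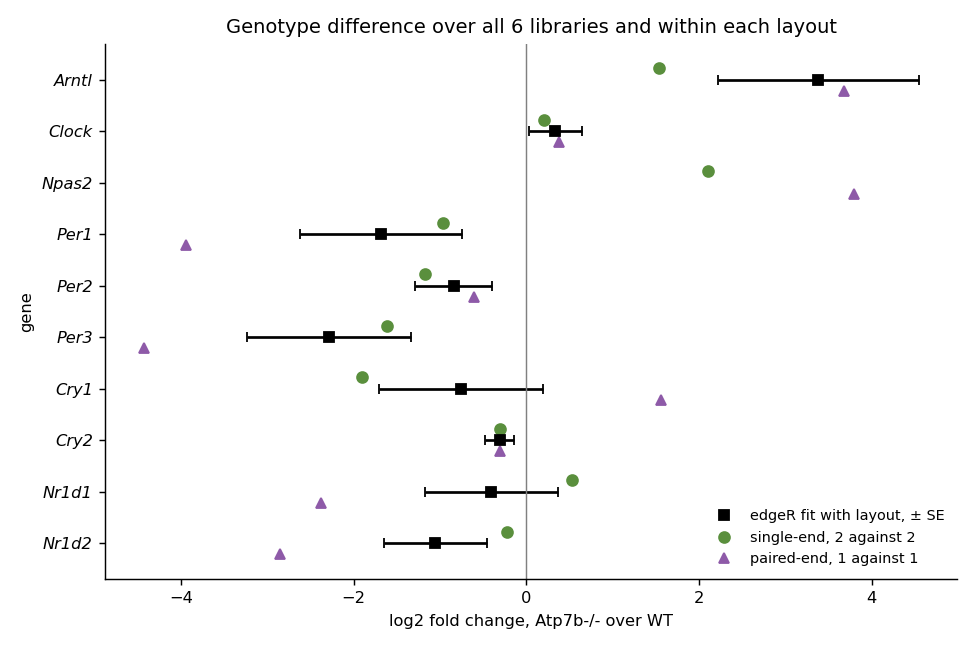
Log2 fold change of Atp7b-/- over WT livers for each core clock gene, from the edgeR fit with layout (squares, ± SE; none for Npas2, which the filter left out), between single-end libraries (circles, 2 against 2) and between paired-end libraries (triangles, 1 against 1). Arntl lies at 3.38 in the fit, and the layouts fall on opposite sides of 0 for Cry1 (1.56 paired-end, -1.90 single-end) and Nr1d1 (-2.38 paired-end, 0.53 single-end).

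Since collection time is not stated, the arms of the loop were also set against each other within each library. The difference in log2 CPM of Arntl minus Nr1d1 was -5.05, -9.05 and 1.80 in Atp7b-/- replicates 1 to 3, against -4.26, -8.06 and -8.05 in WT replicates 1 to 3. For Arntl minus Per3 it was -0.29, -6.90 and 4.49 in Atp7b-/- replicates 1 to 3, against -3.61, -6.37 and -7.12 in WT replicates 1 to 3. Atp7b-/- replicate 2 and WT replicates 2 and 3 thus had little Arntl beside much Nr1d1 and Per3, Atp7b-/- replicate 3 had the reverse, and WT replicate 1 lay between. Atp7b-/- replicate 1 combined the highest Nr1d1 of all libraries with the second highest Arntl and Npas2, the lowest Cry1 and low Per2 and Per3.

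Over the 3 activator genes minus 5 repressor genes (Per1, Per2, Per3, Nr1d1 and Nr1d2), the mean difference in log2 CPM was -1.92, -5.73 and 2.18 in Atp7b-/- replicates 1 to 3, against -3.27, -5.80 and -5.80 in WT replicates 1 to 3. Atp7b-/- livers averaged -1.82 ± 3.96 and WT livers -4.96 ± 1.46 (SD, n = 3 each), so the difference of 3.13 was smaller than the spread within the Atp7b-/- group. It was 1.13 without Atp7b-/- replicate 3 and 5.09 without Atp7b-/- replicate 2. For Arntl minus Nr1d1 the means were -4.10 ± 5.49 in Atp7b-/- livers and -6.79 ± 2.19 in WT livers, and the difference of 2.69 turned to -0.26 without Atp7b-/- replicate 3.

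Nr1d1 minus Per3 in log2 CPM was 4.76, 2.16 and 2.70 in Atp7b-/- replicates 1 to 3, against 0.65, 1.69 and 0.93 in WT replicates 1 to 3. The genotypes did not overlap here, as for 5 of the 45 possible pairs of the 10 genes, against 9.96% of all pairs of tested genes, a share near that of the clock genes. The 9.96% covers tested genes only, whereas the 45 pairs include those of Npas2, which the filter left out. The other pairs were Clock with Npas2, Npas2 with Cry1, Npas2 with Nr1d2 and Per3 with Cry2. Those with Npas2 rest on 11, 2 and 1 Npas2 reads in WT replicates 1 to 3 and 3 in Atp7b-/- replicate 2. These pairs were picked after their values were seen, so no test is given.

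**Figure D3:**
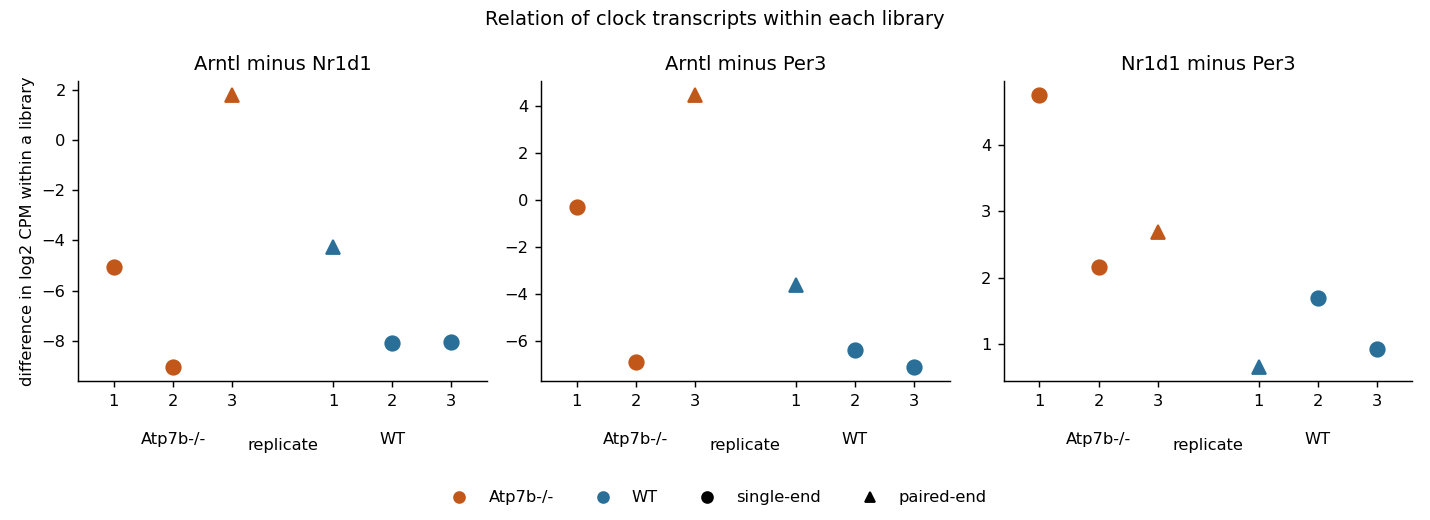
Difference in log2 CPM between a pair of clock genes within each library, Atp7b-/- left of WT, with circles for single-end and triangles for paired-end libraries. Arntl minus Nr1d1 and Arntl minus Per3 are highest in Atp7b-/- replicate 3 (1.80 and 4.49) and overlap between genotypes, whereas Nr1d1 minus Per3 is 2.16 to 4.76 in Atp7b-/- and 0.65 to 1.69 in WT libraries.

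Per kilobase of exon, which allows genes to be compared, Nr1d1 was the most abundant of the 10 over all libraries at 58.1 CPM per kb. Nr1d2 (15.1), Per1 (11.9), Cry2 (10.8), Per2 (8.72), Per3 (4.55), Clock (3.71), Cry1 (3.57), Arntl (1.30) and Npas2 (0.449 CPM per kb) followed. Every gene overlapped its neighbours in this order when the 6 libraries were compared. Nr1d1 averaged 64.1 ± 57.0 CPM per kb in Atp7b-/- livers and 52.2 ± 36.6 in WT livers, and Arntl averaged 2.402 ± 2.97 CPM per kb in Atp7b-/- livers and 0.202 ± 0.202 in WT livers (SD, n = 3 each). In Atp7b-/- replicate 3 alone Arntl, at 5.74 CPM per kb, exceeded Nr1d1, at 4.01 CPM per kb.

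The clock genes spread more widely between libraries than most genes. The distance from the highest to the lowest library was 6.72 on the log2 scale for Arntl, and 0.477% of all tested genes had a larger one. It was 5.97 for Per1 (0.870% of genes larger), 5.52 for Per3 (1.32%) and 4.86 for Nr1d1 (2.48%), but 1.69 for Cry2 (46.5%). The median over the 9 tested genes was 2.94, against 1.60 over all genes. The SD over 3 libraries was larger in the Atp7b-/- than in the WT group for 7 of the 9, against 30.2% of all genes. The median SD of the 9 genes was 1.503 in Atp7b-/- and 0.91 in WT livers, against 0.53 in Atp7b-/- and 0.67 in WT livers over all genes. Between the single-end libraries of 1 genotype, where layout plays no part, the median gap of the 9 genes was 1.17 in Atp7b-/- and 0.56 in WT livers, against 0.31 in Atp7b-/- and 0.38 in WT livers over all genes.

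The distance between libraries, taken as the root mean square difference in log2 CPM, followed another order over the 10 clock genes than over all 12988 tested genes. Atp7b-/- replicates 1 and 2 were the closest of the 15 pairs over all genes, at 0.615, yet differed by 2.03 over the clock genes, the eighth smallest distance. Atp7b-/- replicate 3 and WT replicate 1, the paired-end libraries, were second closest over all genes at 0.792 and only twelfth over the clock genes at 2.83. Atp7b-/- replicate 2 lay 0.674 and 0.781 from WT replicates 2 and 3 over the clock genes, close to the 0.652 between those WT replicates. The largest distance over the clock genes, 3.91, was that of Atp7b-/- replicate 3 from WT replicate 2.

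**Figure D4:**
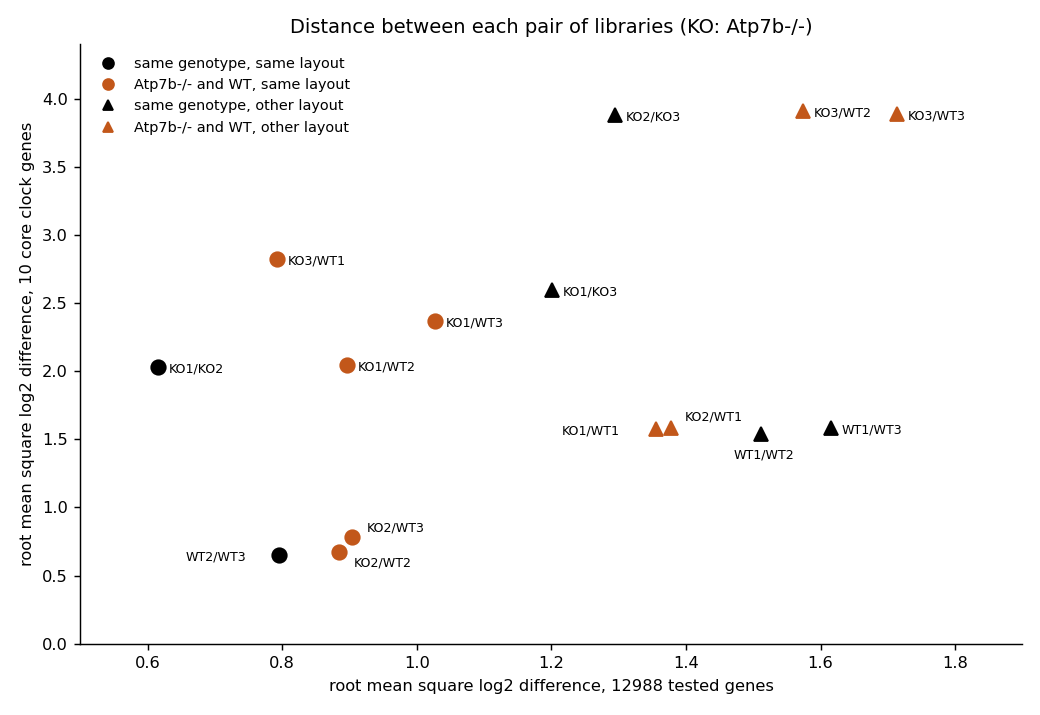
Root mean square difference in log2 CPM between each pair of the 6 libraries over the 10 core clock genes (vertical) and over the 12988 tested genes (horizontal), with KO for Atp7b-/-, circles for pairs of 1 layout and triangles for pairs across layouts. KO1/KO2 is lowest on the horizontal axis (0.615) but at 2.03 on the vertical one, where KO2 sits at 0.674 and 0.781 from WT2 and WT3.

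Within the 10 genes the activators ran opposite to most repressors. Over the 6 libraries, Pearson's r in log2 CPM was 0.929 between Arntl and Npas2, -0.918 between Arntl and Per1, -0.911 between Arntl and Per3 and 0.955 between Per1 and Per3. Of the 21 correlations of Arntl, Clock or Npas2 with the 7 repressor genes, 16 were below -0.5 over 6 libraries, and 12 were so over the 5 libraries without Atp7b-/- replicate 3. Cry1 and Nr1d2 held the exceptions over 6 libraries, such as 0.240 for Clock with Cry1 and -0.065 for Clock with Nr1d2. Arntl with Nr1d1 was -0.606 with that library and 0.129 without it, and Arntl with Cry1 was 0.028 with it and -0.676 without it. The points share depth and layout within a library, so these values are descriptions only.

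Among the 9836 tested genes outside the loop whose log2 CPM averaged 2 or more, those most like Arntl by Pearson's r over the 6 libraries were Bnip1 (0.985), Hmgxb4 (0.984), Mdp1 (0.983), Aqr (0.983) and Ndrg1 (0.981). Their span was far smaller than that of Arntl: Ndrg1 was 31.4, 14.6 and 47.7 CPM in Atp7b-/- replicates 1 to 3, against 21.9, 16.4 and 11.1 CPM in WT replicates 1 to 3. Those most like Nr1d1 were Tob2 (0.995), Ogfod3 (0.991), Tram2 (0.987), Fars2 (0.984) and Serpina3n (0.982). Tob2 was 117, 90.2 and 21.1 CPM in Atp7b-/- replicates 1 to 3, against 41.5, 104 and 70.4 CPM in WT replicates 1 to 3. None of the 10 was called between genotypes, against 2.49% of all tested genes. They are the highest values picked from 9836 genes over only 6 libraries, so they are descriptions only.

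Transcription factors that the loop drives also had Atp7b-/- replicate 3 at 1 end of their range, while the library at the other end varied. Dbp, a D-box activator, was 58.1, 231 and 0.999 CPM in Atp7b-/- replicates 1 to 3, against 48.6, 286 and 320 CPM in WT replicates 1 to 3 (log2 fold change -2.23, SE 1.31, adjusted p = 0.545). Its lowest value, in Atp7b-/- replicate 3, rested on 29 reads. Nfil3, the D-box repressor whose window is shown above with that of Arntl, was 23.0, 11.6 and 50.5 CPM in Atp7b-/- replicates 1 to 3, against 11.2, 13.2 and 15.9 CPM in WT replicates 1 to 3 (log2 fold change 0.92, adjusted p = 0.43). As with Arntl, Atp7b-/- replicates 3 and 1 were above every WT library. Tef, a relative of Dbp, was 133, 259 and 31.2 CPM in Atp7b-/- replicates 1 to 3, against 194, 314 and 270 CPM in WT replicates 1 to 3 (log2 fold change -1.24, adjusted p = 0.325).

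Hlf, the remaining D-box activator, was the 1 of these 4 factors that edgeR called, against 2.49% of all genes. It was 38.2, 40.0 and 31.0 CPM in Atp7b-/- replicates 1 to 3, against 67.5, 66.3 and 71.2 CPM in WT replicates 1 to 3. The groups did not overlap and each was tight. Dbp, Tef and Nfil3 had log2 fold changes as large or larger in size, but with larger SE, and were not called. Hlf fell in Atp7b-/- livers in edgeR's test (log2 fold change -0.92, SE 0.18, adjusted p = 0.0323), but the call was lost without any 1 of the 6 libraries (adjusted p = 0.0569 to 0.196).

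Of 21 genes whose proteins act on the loop, 20 were tested. Of these 0 were called by edgeR or DESeq2, against 2.49% and 5.93% of all genes. An unadjusted p under 0.05 in edgeR was found for 0 of them and for 1889 of all 12988 genes. Their median log2 fold change was -0.10, against -0.01 over all genes. The smallest p-values belonged to Gsk3b, a kinase that phosphorylates clock proteins (log2 fold change -0.45), Ddb1, a ubiquitin ligase subunit (0.31), Bhlhe40, an E-box repressor (-0.51), and Usp2, a deubiquitinase (-1.91). Usp2 was 5.83, 77.6 and 1.72 CPM in Atp7b-/- replicates 1 to 3, against 16.3, 97.7 and 110 CPM in WT replicates 1 to 3. Ciart, a repressor of the activating pair, named after its values were seen, was 5.07, 36.6 and 0.723 CPM in Atp7b-/- replicates 1 to 3, against 9.83, 25.0 and 32.6 CPM in WT replicates 1 to 3. Both followed the Per genes, lowest in Atp7b-/- replicate 3 and low in Atp7b-/- replicate 1. Rora, which encodes an activator of Arntl, had a log2 fold change of 0.25 between genotypes (adjusted p = 0.592) and 1.62 between paired-end and single-end libraries (adjusted p = 0.000252).

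Of 22 other liver genes with a known daily rhythm, 1 rose, 0 fell and the median log2 fold change was -0.71. Over all 12988 tested genes 2.49% were called and the median was -0.01. The gene that rose was Cdkn1a, which encodes the cell cycle inhibitor p21 and also answers to DNA damage. It was 168, 51.8 and 148 CPM in Atp7b-/- replicates 1 to 3, against 4.07, 2.46 and 2.78 CPM in WT replicates 1 to 3 (log2 fold change 5.31, SE 0.49, adjusted p = 0.00258), and the call was lost without WT replicate 3 (adjusted p = 0.0741). Unlike Arntl and the Per genes it was far above WT in every Atp7b-/- library, replicate 2 included. Next by p-value came Srebf1, a regulator of lipid synthesis (log2 fold change -1.002, adjusted p = 0.0997), Por, which passes electrons to cytochromes P450 (-1.41, adjusted p = 0.156), and Insig2, which holds back SREBP processing (1.20, adjusted p = 0.187).

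**Figure D5:**
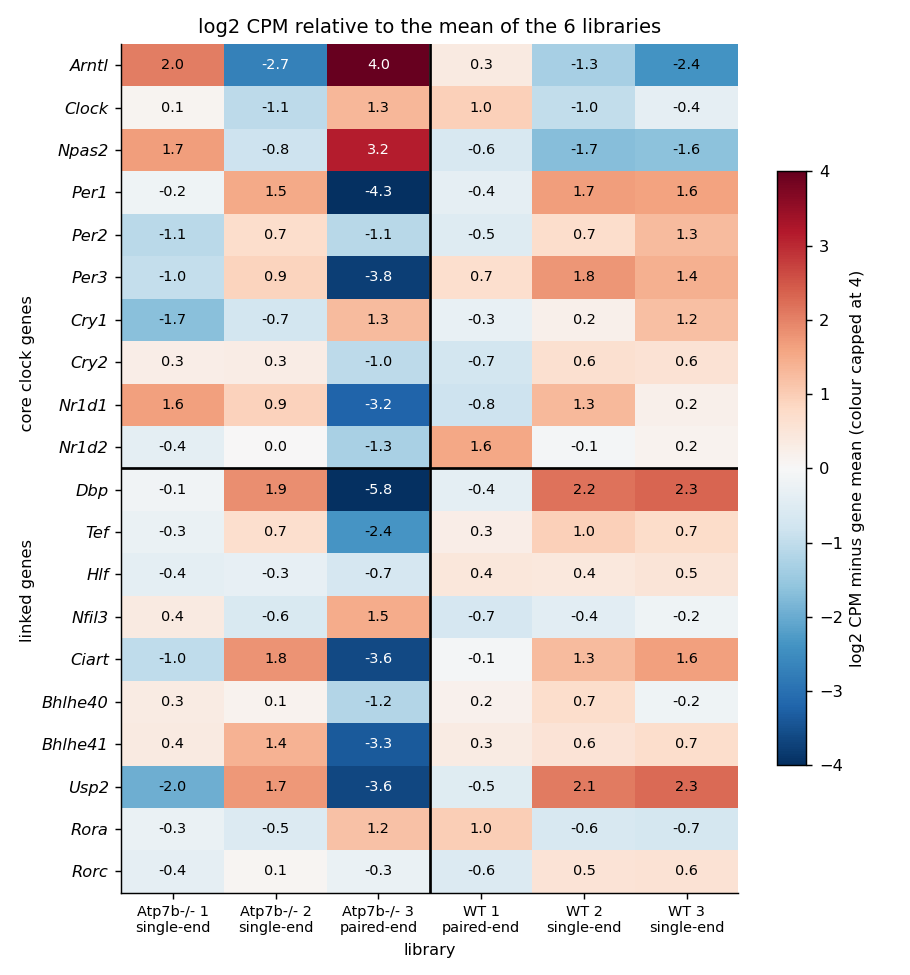
Log2 CPM of each gene minus its mean over the 6 libraries, with Atp7b-/- libraries left of WT libraries, core clock genes above the horizontal line and linked genes below it, and colour capped at 4. The column of Atp7b-/- replicate 3 is high for Arntl, Npas2 and Nfil3 and low for the Per genes, Nr1d1, Dbp, Ciart and Usp2, and that of Atp7b-/- replicate 2 resembles those of WT replicates 2 and 3.

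Genes that answer to cues able to shift the liver clock were read beside it. In the list of temperature and systemic cues edgeR called 0 of 9 genes (median log2 fold change 0.30), and in the feeding and fasting list 0 of 14 (median -0.51), against 2.49% of all genes (median -0.01). Before adjustment, edgeR's p was under 0.05 for 1 of the 9, Hsp90aa1, and for 5 of the 14, against 1889 of all 12988 genes. The smallest adjusted p of the feeding and fasting list was that of Pdk4, a fasting-induced kinase (log2 fold change 1.69, adjusted p = 0.0818). Among glucocorticoid-responsive genes 1 of 11 was called against the same 2.49%, the metallothionein Mt2, which also answers to copper (log2 fold change 3.98, adjusted p = 0.00101). The part of feeding, hormones or temperature in the clock values was not tested.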

How the data were processed

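RNA-seq counts of 6 liver libraries were used. The authors deposited raw counts per Ensembl gene, made with STAR 2.4 and featureCounts on build GRCm38, and edgeR 3.8 was also used, per the submitters' processing notes. Strand setting, multimapping reads and read pairs are not described in the sources used here. GENCODE M21 named 40340 identifiers and left 1048 without a symbol. The test was edgeR 4.0.16 (R 4.3.3) after TMM scaling and a filter by genotype (minimum count 10). Layout and genotype were terms of its robust quasi-likelihood fit, p-values were adjusted by Benjamini-Hochberg over all tested genes, and calls needed an adjusted p under 0.05. The procedure was tested on simulated data. Log2 CPM used a prior count of 2, and Poisson intervals cover counting error only. DESeq2 1.42.0, limma 3.58.1, other scalings, filters and covariates and leaving out libraries were alternatives. The clock genes, lists and alternatives were chosen with earlier results of these data known. Genes named were the 10 clock genes, called genes and up to 4 of the smallest p per list, and the 5 most like Arntl and Nr1d1. Replicates are numbered in accession order, which pairs nothing. Separate animals per library are not stated, so p-values measure the spread between libraries, which may be technical.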

Additional observations from a re-analysis of the deposited data

How the results depend on the processing

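No paired analysis was possible because the labels give the genotypes no shared replicate numbers. The count of core clock genes called was 0 and became 2 with no filter on low counts, 1 with the filter by the design matrix, and 0 to 3 over the leave-outs of 1 library. The 3 were called only without Atp7b-/- replicate 2, the library that made Arntl and Per3 overlap, and every other leave-out called 0. Of all genes 323 were called, against 770 with DESeq2, 1116 with no filter, 126 in the single-end libraries alone, and 119 to 323 over the leave-outs. Without the layout term, or with labelled sex in its place, edgeR called 0 of all genes (545 and 381 at an unadjusted p under 0.05) and therefore 0 output factors and 0 rhythmic genes. Of the 4 output factors 3 were called with no filter, against 4.44% of all genes. None was called in the single-end libraries alone, without replicate 3 of both genotypes or in any leave-out. Of the 22 rhythmic genes 4 were called with DESeq2, against 5.93% of all genes, and 8 with no filter, against 4.44%. Over the leave-outs 0 to 7 of them were called, and 0 to 2 of the 21 listed regulators. The 7 and the 2 both came from the fit without Atp7b-/- replicate 2, against 2.08% of all genes there. Every other leave-out called at most 1 rhythmic gene and 0 regulators. The sign of the log2 fold change turned for Nr1d1 to 0.30 without layout, 0.48 in the single-end libraries alone, 0.027 without replicate 3 of both genotypes, and lay at -1.05 to 0.48 over the leave-outs. Over the leave-outs Clock lay at -0.032 to 0.61, Cry1 at -1.97 to 0.018, Nr1d2 at -1.48 to -0.20, Arntl minus Nr1d1 at -0.26 to 5.16 and the activators minus the repressors at 1.13 to 5.09. The interaction called 0 core clock genes in edgeR and 4 in DESeq2. In the proximal 150 bases of the promoter windows 1 clock gene held an E-box and 0 a D-box. The cause of these changes was not tested. Low depth limits Arntl and Npas2 in Atp7b-/- replicate 2 and WT replicates 2 and 3, with 1 to 11 reads each.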
